A study of Mus musculus with 6 samples.

Results

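The genes described here make up the MHC class I antigen presentation pathway: H2-K1, H2-D1, H2-T23, B2m, Tap1, Tap2, Tapbp, Psmb8, Psmb9 and Nlrc5. They were chosen by symbol, all 10 were found among the 22298 genes listed in each deposited table, and all 10 passed the filter on low counts. Messenger RNA was sequenced from thymus cells of C57BL/6 mice that had received no treatment. Toxf/fPdcd1Cre mice carry a Tox gene flanked by recombination sites together with a Cre that bears the name of Pdcd1 (the PD-1 receptor gene) in its own, and Toxf/f mice carry the flanked Tox gene without that Cre. Each genotype had 3 samples, with replicates 1 and 2 taken at 3 weeks of age and replicate 3 at 4 weeks. Replicates 1 and 2 of Toxf/f had the same value for every gene, so they count as 1 sample, which left 3 Toxf/fPdcd1Cre libraries against 2 Toxf/f libraries. Whether each sample is a mouse of its own is not labelled; p-values therefore reflect the spread among these libraries and no more, and that spread may be technical.

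MHC class I molecules carry short peptides from inside the cell to its surface, where CD8 T cells and natural killer cells read them. The proteasome cuts proteins into peptides, the Tap1 and Tap2 transporter moves these into the endoplasmic reticulum, and tapasin (Tapbp) holds the empty heavy chain, paired with beta-2-microglobulin (B2m), until a peptide fits. Nlrc5 is the transactivator of class I genes and acts at a promoter module with X and Y boxes, while interferons raise many of the same genes through factors such as Irf1. In the thymus, class I on cortical and medullary stromal cells selects the CD8 lineage, and maturing thymocytes raise their own class I.

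Libraries held between 14245492 and 16199195 estimated counts in total. Tox had 201 to 281 estimated counts in Toxf/fPdcd1Cre libraries, against 1746 and 1896 in Toxf/f libraries, so the targeted gene followed the labels. Ddx3y, a gene of the Y chromosome, had 1 count in Toxf/fPdcd1Cre replicate 1 and 843 to 1354 in the other libraries. The labels name the cells double-negative (DN) in the titles and DN2 in the protocol. Yet Cd4 had 718 to 982 CPM (counts scaled to library size) in Toxf/fPdcd1Cre libraries and 845 and 909 CPM in Toxf/f libraries, and Cd8a had 1626 to 2017 CPM in Toxf/fPdcd1Cre libraries and 1395 and 1851 CPM in Toxf/f libraries. Kit, a marker of the earliest double-negative stages, had 10.3 to 20.0 CPM in Toxf/fPdcd1Cre libraries and 16.9 and 25.3 CPM in Toxf/f libraries. Prss16, a thymic epithelial marker, had 1064 to 1268 CPM in Toxf/fPdcd1Cre libraries and 900 and 1029 CPM in Toxf/f libraries. The samples are therefore called thymus cells below, without a stage, and cells other than thymocytes may be among them.

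The promoters of H2-K1, H2-D1, H2-Q7 and B2m are shown because these heavy chain and light chain genes had large differences between the genotypes. They also differ in their matches to the exact motif letters searched. H2-Q7 encodes a Qa-2 heavy chain, a nonclassical relative of H2-K1. Each run is the 200 bases before an annotated transcription start, 5′ to 3′ on the gene's strand, from RefSeq on GRCm38.p6. H2-K1 lies at chr17:34000348-34000547 on the minus strand, H2-D1 at chr17:35262894-35263093 on the plus strand, H2-Q7 at chr17:35438955-35439154 on the plus strand and B2m at chr2:122147487-122147686 on the plus strand. Capitals mark matches to the NF-κB motif, the interferon-stimulated response element (ISRE), the X2 box and the Y box, the last written CCAAT or, on the other strand, ATTGG.
H2-K1: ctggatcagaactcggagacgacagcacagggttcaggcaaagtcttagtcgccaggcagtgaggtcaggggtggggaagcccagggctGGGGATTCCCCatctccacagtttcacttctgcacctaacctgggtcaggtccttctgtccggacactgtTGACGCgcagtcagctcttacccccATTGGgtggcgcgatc
H2-D1: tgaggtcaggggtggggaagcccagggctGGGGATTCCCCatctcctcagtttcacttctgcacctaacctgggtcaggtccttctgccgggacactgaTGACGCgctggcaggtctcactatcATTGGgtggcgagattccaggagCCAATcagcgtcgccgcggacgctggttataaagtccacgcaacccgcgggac
H2-Q7: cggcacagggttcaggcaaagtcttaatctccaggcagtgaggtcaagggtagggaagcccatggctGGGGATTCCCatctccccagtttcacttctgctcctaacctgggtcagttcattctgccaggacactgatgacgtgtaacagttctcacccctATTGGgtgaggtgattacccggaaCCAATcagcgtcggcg
B2m: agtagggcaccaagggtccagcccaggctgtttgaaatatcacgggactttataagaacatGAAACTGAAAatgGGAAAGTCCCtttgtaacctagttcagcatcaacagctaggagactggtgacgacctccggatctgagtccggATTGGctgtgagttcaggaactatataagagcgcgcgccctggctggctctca
The first capitals in H2-K1, H2-D1 and H2-Q7 are the NF-κB match, and in B2m the ISRE match comes before it.

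Of the 10 genes, 4 were called lower in Toxf/fPdcd1Cre thymus cells and 0 were called higher. Calls were made at an adjusted p under 0.05 (edgeR quasi-likelihood test, Benjamini-Hochberg adjustment over 14121 genes). The 4 were the transactivator Nlrc5, the classical heavy chains H2-K1 and H2-D1, and tapasin. Over all genes tested, 1.51% were called lower, 0.135% higher and 1.64% in either direction. At an unadjusted p under 0.05, 7 of the 10 were lower, beside 7.26% of all genes tested, and 0 were higher, beside 3.08%; DESeq2 also called 0 higher. The values of the genotypes did not overlap for 7 of the 10, all 7 lower in Toxf/fPdcd1Cre, where 13.5% of all genes tested were lower and 12.6% higher without overlap. The log2 fold changes of the 10 had a median of -0.54 and ranged between -1.45 and 0.13, and 8 were below 0, while the median over all genes tested was 0.03 and 45.2% were below 0. In these bulk samples, fewer cells of a type that expresses these genes and less RNA per cell cannot be told apart.

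**Figure D1:**
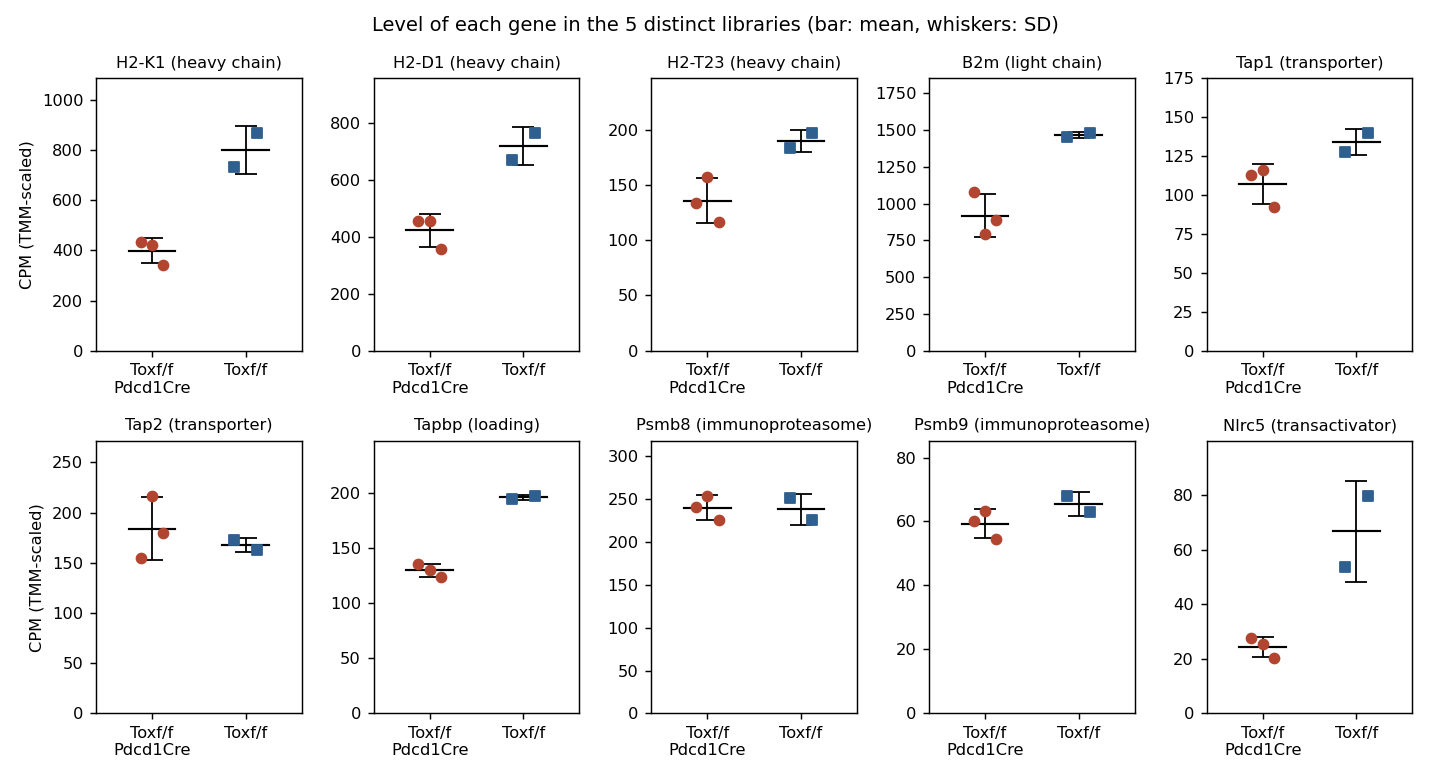
Level of each of the 10 genes in CPM on TMM-scaled library sizes, with 1 point per distinct library, bars at the mean and whiskers for the SD, over 3 Toxf/fPdcd1Cre and 2 Toxf/f libraries. The points of the genotypes are separated for 7 genes and overlap for Tap2, Psmb8 and Psmb9, and each panel has its own axis from 0.

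The differences were largest at the transactivator and the classical heavy chains. Nlrc5 (ENSMUSG00000074151, chromosome 8, 94434356 to 94527272, plus strand) had 27.5, 25.5 and 20.2 CPM in Toxf/fPdcd1Cre replicates 1, 2 and 3, against 53.7 CPM in the library shared by Toxf/f replicates 1 and 2 and 79.8 CPM in Toxf/f replicate 3. Every Toxf/fPdcd1Cre library was below both Toxf/f libraries, and the Toxf/f libraries stood further apart from each other than the others did. Nlrc5 fell 2.73-fold, a log2 fold change of -1.45 ± 0.19 (SE), with an adjusted p of 0.00296 by edgeR. This left Nlrc5 at 36.6% of its Toxf/f level. Without Toxf/f replicate 3 the log2 fold change was -1.14 and the call was lost, with an adjusted p of 0.0988. The authors' FPKM values, which divide by gene length, were 3.73, 4.00 and 3.63 in Toxf/fPdcd1Cre and 12.2 and 13.8 in Toxf/f. The ratio of count to FPKM for Nlrc5 differed 1.69-fold between libraries, while for the other 9 genes it differed by at most 1.05-fold, so the size of the Nlrc5 difference depends on the unit.

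H2-K1 (ENSMUSG00000061232, chromosome 17, 33996017 to 34000347, minus strand) encodes the classical class I heavy chain H2-K. It had 434, 421 and 341 CPM in Toxf/fPdcd1Cre replicates 1, 2 and 3, against 734 and 869 CPM in the Toxf/f libraries. All 3 Toxf/fPdcd1Cre values were below both Toxf/f values, with a clear gap. H2-K1 averaged 399 ± 50.7 CPM in Toxf/fPdcd1Cre (SD, n = 3) and 802 ± 95.2 CPM in Toxf/f (SD, n = 2). It fell 2.01-fold, a log2 fold change of -1.01 ± 0.15 (SE) with an adjusted p of 0.00682 by edgeR. The call was lost when either Toxf/f library was left out, at an adjusted p of 0.068 without the shared library and 0.195 without replicate 3.

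H2-D1 (ENSMUSG00000073411, chromosome 17, 35262730 to 35267499, plus strand) encodes the other classical heavy chain measured. Its level was 455, 454 and 356 CPM in Toxf/fPdcd1Cre and 670 and 764 CPM in Toxf/f, again without overlap, and the 4-week Toxf/fPdcd1Cre library was the lowest for H2-D1 as for H2-K1. H2-D1 fell 1.7-fold, with a log2 fold change of -0.77 ± 0.15 (SE) and an adjusted p of 0.0291 by edgeR. The adjusted p was 0.125 without Toxf/fPdcd1Cre replicate 3, 0.169 without the shared Toxf/f library, 0.387 without Toxf/f replicate 3 and 0.0651 with age in the model, so the H2-D1 call did not hold under these. H2-T23 (ENSMUSG00000067212, chromosome 17, 36029773 to 36032855, minus strand) encodes Qa-1, which shows leader peptides of other class I chains to CD94 and NKG2 receptors. It had 134, 157 and 116 CPM in Toxf/fPdcd1Cre and 183 and 197 CPM in Toxf/f. These values did not overlap, but the log2 fold change of -0.49 ± 0.15 (SE) had an adjusted p of 0.173 by edgeR and did not pass.

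B2m (ENSMUSG00000060802, chromosome 2, 122147686 to 122153083, plus strand) encodes the light chain that every class I heavy chain above needs for stable surface display. It ranked 37 among all listed genes by mean FPKM, and H2-K1 and H2-D1 ranked 178 and 241. Its level was 1076, 791 and 885 CPM in Toxf/fPdcd1Cre and 1453 and 1480 CPM in Toxf/f, a wide gap with the spread mostly among the Toxf/fPdcd1Cre libraries. The log2 fold change was -0.68 ± 0.16 (SE), 62.6% of the Toxf/f level, and the adjusted p of 0.0602 by edgeR just missed the threshold. Without Toxf/fPdcd1Cre replicate 1, the highest of that genotype for B2m, the adjusted p was 0.0109 by edgeR. It was 0.167 without Toxf/fPdcd1Cre replicate 2, 0.221 without replicate 3 and 0.138 with age in the model. The log2 fold change was -0.69 without the shared Toxf/f library and -0.66 without Toxf/f replicate 3.

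The ratio of heavy to light chain within a library needs no scaling between libraries. The FPKM ratio of H2-K1 to B2m was 0.221, 0.291 and 0.209 in Toxf/fPdcd1Cre and 0.277 and 0.321 in Toxf/f. That of H2-D1 to B2m was 0.178, 0.241 and 0.169 in Toxf/fPdcd1Cre and 0.194 and 0.217 in Toxf/f. Both ratios overlapped between the genotypes, with Toxf/fPdcd1Cre replicate 2, the library with the lowest B2m, at the high end of its genotype. The mean log2 differences were -0.33 for H2-K1 and -0.08 for H2-D1, with exact permutation p of 0.4 and 0.8 (two-sided, both 0.8 adjusted over the 2 ratios), where 3 against 2 libraries allow no p below 0.2.

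**Figure D2:**
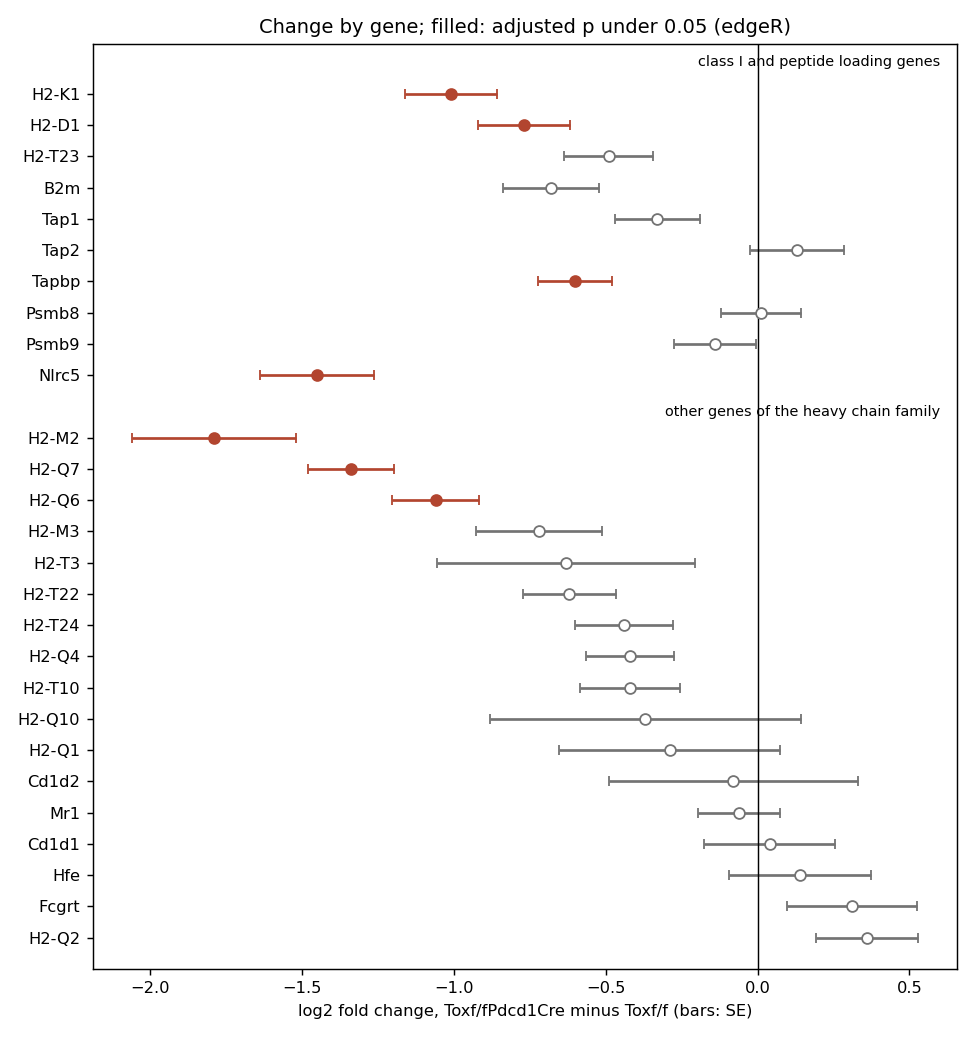
Log2 fold change, Toxf/fPdcd1Cre minus Toxf/f, of each of the 10 genes in order of role. Below them are the 17 other heavy chain family genes tested, sorted by log2 fold change. Bars show the SE, and filled points an adjusted p under 0.05 (edgeR). Of the 10, Nlrc5, H2-K1, H2-D1 and Tapbp are filled and lie between -1.45 and -0.60, while Tap2, Psmb8 and Psmb9 lie between -0.14 and 0.13. Of the other family genes, H2-M2, H2-Q7 and H2-Q6 are filled.

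The loading machinery was split. Tapbp (ENSMUSG00000024308, chromosome 17, 33915899 to 33929292, plus strand) had 136, 130 and 124 CPM in Toxf/fPdcd1Cre and 195 and 198 CPM in Toxf/f. The values within each genotype lay close together and far from those of the other. Tapbp fell 1.51-fold, with a log2 fold change of -0.60 ± 0.12 (SE) and an adjusted p of 0.0328 by edgeR. The annotation places Zbtb22 over the same stretch on the same strand, and Zbtb22 had a log2 fold change of 0.44 with an adjusted p of 0.321. The Tapbp call was lost in 4 of the 5 runs that each left out a library, with adjusted p of 0.062 without Toxf/fPdcd1Cre replicate 2, 0.159 without replicate 3, 0.227 without the shared Toxf/f library and 0.329 without Toxf/f replicate 3, and with age in the model it was 0.0783.

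Tap1 (ENSMUSG00000037321, chromosome 17, 34187553 to 34197225, plus strand), a subunit of the peptide transporter, had 113, 116 and 92.1 CPM in Toxf/fPdcd1Cre and 128 and 140 CPM in Toxf/f. The genotypes did not overlap but lay close, and the log2 fold change of -0.33 ± 0.14 (SE) did not pass (adjusted p of 0.429 by edgeR). Tap2 (ENSMUSG00000024339, chromosome 17, 34203527 to 34216321, plus strand), the partner subunit, had 155, 217 and 180 CPM in Toxf/fPdcd1Cre and 173 and 163 CPM in Toxf/f. The Tap2 values overlapped, with the highest and the lowest both in Toxf/fPdcd1Cre, and the log2 fold change was 0.13 ± 0.16 (SE, adjusted p of 0.875). The sign of the Tap2 value was not stable, at -0.00 without Toxf/fPdcd1Cre replicate 2.

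The immunoproteasome subunits Psmb8 and Psmb9, which replace constitutive subunits and favour peptides that class I can hold, did not pass the test. Psmb8 (ENSMUSG00000024338, chromosome 17, 34197721 to 34201454, plus strand) had 241, 254 and 225 CPM in Toxf/fPdcd1Cre and 251 and 225 CPM in Toxf/f, with nearly the same range in both. Psmb9 (ENSMUSG00000096727, chromosome 17, 34181987 to 34187764, minus strand) had 60.1, 63.4 and 54.6 CPM in Toxf/fPdcd1Cre and 68.1 and 62.9 CPM in Toxf/f, overlapping by 1 library. Their log2 fold changes were 0.01 ± 0.13 and -0.14 ± 0.13 (SE), with adjusted p of 0.99 and 0.836 by edgeR, and the Psmb8 value took either sign across the alternatives (-0.07 to 0.10).

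The FPKM ratio of each immunoproteasome subunit to the constitutive subunit it replaces gave a within-library view. Psmb8 to Psmb5 was 3.34, 2.88 and 2.95 in Toxf/fPdcd1Cre and 3.28 and 3.35 in Toxf/f. Psmb9 to Psmb6 was 0.353, 0.372 and 0.328 in Toxf/fPdcd1Cre and 0.396 and 0.427 in Toxf/f. Psmb10 to Psmb7, with the third induced subunit, was 0.427, 0.402 and 0.353 in Toxf/fPdcd1Cre and 0.473 and 0.514 in Toxf/f. The last 2 ratios were lower in every Toxf/fPdcd1Cre library, by -0.23 and -0.33 on the log2 scale, and both had an exact permutation p of 0.2, the smallest this design allows, and 0.3 adjusted over the 3 ratios. The Psmb8 to Psmb5 ratio overlapped, with a log2 difference of -0.12 and an exact permutation p of 0.4.

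Values by age are given because each genotype had mice of both ages. Set against the Toxf/f library of the same age, H2-K1 differed by -0.76 and -0.80 (log2) in the 3-week Toxf/fPdcd1Cre libraries and by -1.35 in the 4-week library. For Nlrc5 the same differences were -0.96, -1.07 and -1.98, and for H2-D1 they were -0.56, -0.56 and -1.10. B2m differed by -0.43, -0.88 and -0.74, and Tapbp by -0.52, -0.58 and -0.68. These 5 genes had the same sign in every library at both ages. So did H2-T23, Tap1 and Psmb9, which were not called, while Tap2 and Psmb8 did not. With the 3-week libraries alone, 2 against 1, Nlrc5 was the only one of the 10 that passed (log2 fold change of -1.02, adjusted p of 0.0443 by edgeR). That fit takes the spread from the Toxf/fPdcd1Cre libraries alone and assumes that the lone Toxf/f library varies like them. The difference between the ages was not tested, since each age had 1 Toxf/f library. The median over the 10 genes, relative to the Toxf/f mean, was -0.48, -0.44 and -0.69 in Toxf/fPdcd1Cre replicates 1, 2 and 3 (log2, SD 0.13).

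All of the 10 genes but B2m and Nlrc5 lie on chromosome 17, in the H2 complex. Between Tapbp and Tap2, on chromosome 17 at 33915899 to 34216321 (GRCm38, GENCODE M21), 23 genes were tested. Of these, 6 are among the 10, and 3 fell: Tapbp, H2-K1 and H2-DMb2, a chain of the class II peptide loader (log2 fold change of -0.89, adjusted p of 0.0333 by edgeR). The median over the 23 was -0.06. Tap1 and Psmb9 start 225 bases apart and run in opposite directions, their gene bodies overlap, and B2m overlaps Patl2 on the other strand; whether the counting used strand is not given in the sources used here. Of the 50-base stretches in its transcripts, H2-K1 shares 9.63% with other genes, H2-D1 12.8% and H2-T23 13.6%, while B2m, Psmb9 and Nlrc5 share none. Reads from such shared stretches may have been divided between the heavy chain genes, and the counts of H2-D1 and H2-T23 were not whole in any of the 5 libraries.

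The other heavy chain genes show how far the difference reached in that family. Of 17 other family members tested, 3 fell, 0 rose and 14 did not pass, with a median log2 fold change of -0.42 and a range of -1.79 to 0.36. H2-Q7 had 27.8, 26.4 and 22.6 CPM in Toxf/fPdcd1Cre and 62.4 and 67.7 CPM in Toxf/f, with no overlap. Its log2 fold change was -1.34 ± 0.14 (SE, adjusted p of 0.000576 by edgeR), and the call held in all 19 alternatives run. H2-Q6, another Qa-2 gene, had 40.5, 44.1 and 38.2 CPM in Toxf/fPdcd1Cre and 76.4 and 94.2 CPM in Toxf/f. The log2 fold change of H2-Q6 was -1.06 ± 0.14 (SE, adjusted p of 0.00317 by edgeR). H2-M2 had 9.09, 4.79 and 8.32 CPM in Toxf/fPdcd1Cre and 20.2 and 30.7 CPM in Toxf/f, a log2 fold change of -1.79 ± 0.27 (SE, adjusted p of 0.00682). Without Toxf/f replicate 3, which left 1 Toxf/f library, neither passed, with log2 fold changes of -0.90 for H2-Q6 and -1.45 for H2-M2. H2-Q6 and H2-Q7 share 32% and 26.4% of their 50-base stretches with other genes, so their separate levels are uncertain. Not every relative was lower: H2-Q2 had a log2 fold change of 0.36 (adjusted p of 0.496).

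Beyond the heavy chains, few genes of the pathway passed. In all, 81 further pathway genes were tested, 4 fell and 2 rose, and the median log2 fold change was -0.00. None of the 9 genes of the loading complex and peptide trimming passed, and calreticulin (Calr), which holds the heavy chain beside tapasin, had 385, 313 and 366 CPM in Toxf/fPdcd1Cre and 454 and 400 CPM in Toxf/f (adjusted p of 0.581 by edgeR). None of the 6 immunoproteasome and activator genes passed, with a median of -0.06; the most abundant, the assembly factor Pomp, had a log2 fold change of 0.05. The induced subunit Psmb10 had -0.17 (adjusted p of 0.799). None of the 4 constitutive and thymus-specific catalytic subunits passed, with a median of 0.14, and none of the 11 proteasome core subunits passed, with a median of 0.15. Psmb5, Psmb6, Psmb7, the thymus-specific Psmb11 and the core subunit Psmb3 had log2 fold changes of 0.13, 0.08, 0.15, 0.28 and 0.26, none past the threshold (adjusted p between 0.535 and 0.922).

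**Figure D3:**
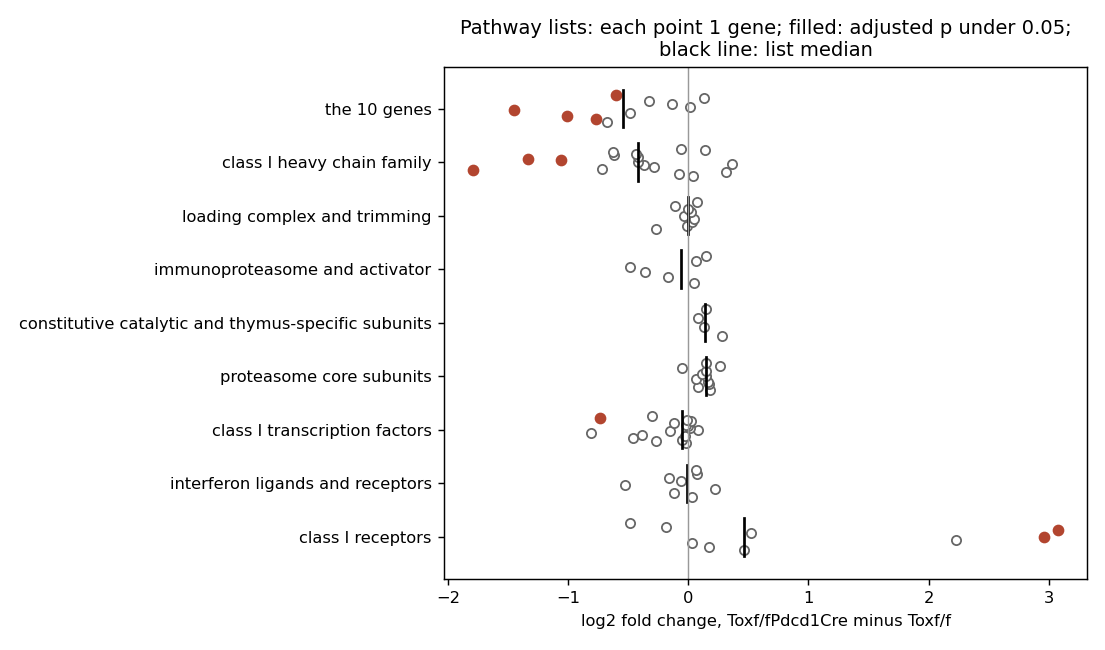
Log2 fold change, Toxf/fPdcd1Cre minus Toxf/f, of the genes of each pathway list, with 1 point per gene tested, filled points for an adjusted p under 0.05 (edgeR) and a black line at each list's median. The heavy chain family has a median of -0.42 and the proteasome core 0.15, and the 2 filled points to the right are Klrc2 and Klra5 among the class I receptors.

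The 17 transcription factors of class I genes had a median log2 fold change of -0.05. Irf1, an interferon-induced factor that binds class I promoters, had 79.7, 80.5 and 75.5 CPM in Toxf/fPdcd1Cre and 105 and 112 CPM in Toxf/f, with no overlap and an adjusted p of 0.109 by edgeR. Rfx5, a DNA-binding partner of Nlrc5, had a log2 fold change of -0.12 (adjusted p of 0.869), and Ciita, the class II transactivator, one of -0.27 (adjusted p of 0.776).

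Of 8 interferon ligand, receptor and signalling genes tested, 0 rose and 0 fell, with a median of -0.01. Ifng itself was too low to test, with 6, 6 and 0 counts in Toxf/fPdcd1Cre and 5 and 5 counts in Toxf/f. Ifngr1, the most abundant of these genes by FPKM, had 470, 469 and 441 CPM in Toxf/fPdcd1Cre and 459 and 332 CPM in Toxf/f (adjusted p of 0.749 by edgeR). Of 9 receptors that bind class I, 2 rose. Klrc2, a partner of CD94 that binds Qa-1, had 1.71, 1.66 and 1.51 CPM in Toxf/fPdcd1Cre and 0.128 and 0.241 CPM in Toxf/f, with a log2 fold change of 3.08 ± 0.64 (SE, adjusted p of 0.0357). Klra5, of the Ly49 receptors, had 2.53, 1.47 and 1.93 CPM in Toxf/fPdcd1Cre and 0.128 and 0.361 CPM in Toxf/f, with a log2 fold change of 2.96 ± 0.65 (SE, adjusted p of 0.0452). Both rest on few counts, 2 to 6 per Toxf/f library. Leaving out Toxf/fPdcd1Cre replicate 3, the shared Toxf/f library or Toxf/f replicate 3 ended both calls (adjusted p between 0.0983 and 0.374), and leaving out Toxf/fPdcd1Cre replicate 2 ended that of Klrc2 (0.0792).

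Markers of some other cell types differed in the same direction. Of 8 mature single-positive T cell markers, 5 fell, and their summed level was 521 to 555 CPM in Toxf/fPdcd1Cre and 722 and 775 CPM in Toxf/f. Cd5, among the most abundant on that list, had a log2 fold change of -0.02 (adjusted p of 0.984 by edgeR). Of 11 dendritic cell markers, 4 fell, and the sum was 1427 to 1962 CPM in Toxf/fPdcd1Cre and 2641 and 3172 CPM in Toxf/f, most of it from class II genes. Cd74, the class II invariant chain, had 658, 596 and 528 CPM in Toxf/fPdcd1Cre and 937 and 1047 CPM in Toxf/f (adjusted p of 0.0277 by edgeR), and H2-Aa had 692, 554 and 458 CPM in Toxf/fPdcd1Cre and 828 and 1064 CPM in Toxf/f (adjusted p of 0.0855). Of 7 B cell markers 1 fell, with sums of 46.9 to 56.2 CPM in Toxf/fPdcd1Cre and 66.3 and 90.8 CPM in Toxf/f. None of 8 macrophage and monocyte markers passed, with sums of 541 to 705 CPM in Toxf/fPdcd1Cre and 885 and 984 CPM in Toxf/f. The part of these cells in the class I values was not tested.

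The remaining marker lists varied in direction. None of 7 double-positive thymocyte markers passed, with sums of 8487 to 10864 CPM in Toxf/fPdcd1Cre and 8497 and 9265 CPM in Toxf/f. Of 7 double-negative markers, 1 fell (Cd44), with sums of 504 to 627 CPM in Toxf/fPdcd1Cre and 408 and 583 CPM in Toxf/f. Of 10 thymic epithelial markers, 1 fell (Krt14), with sums of 2455 to 2695 CPM in Toxf/fPdcd1Cre and 2175 and 2488 CPM in Toxf/f. None of 5 erythroid markers passed, though all 5 had a log2 fold change below 0, with a median of -0.71 and sums of 473 to 1056 CPM in Toxf/fPdcd1Cre and 1035 and 1432 CPM in Toxf/f. The part of erythroid cells in the class I values was not tested. None of 8 endothelial and mesenchymal markers passed, with sums of 374 to 486 CPM in Toxf/fPdcd1Cre and 395 and 409 CPM in Toxf/f. None of 5 granulocyte markers passed, with sums of 29.2 to 115 CPM in Toxf/fPdcd1Cre and 39.9 and 114 CPM in Toxf/f. Of 5 natural killer markers 2 rose, with sums of 96.7 to 172 CPM in Toxf/fPdcd1Cre and 65.2 and 68.0 CPM in Toxf/f, beside the natural killer receptors Klrc2 and Klra5. No marker on any list was at 0 in all libraries.

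**Figure D4:**
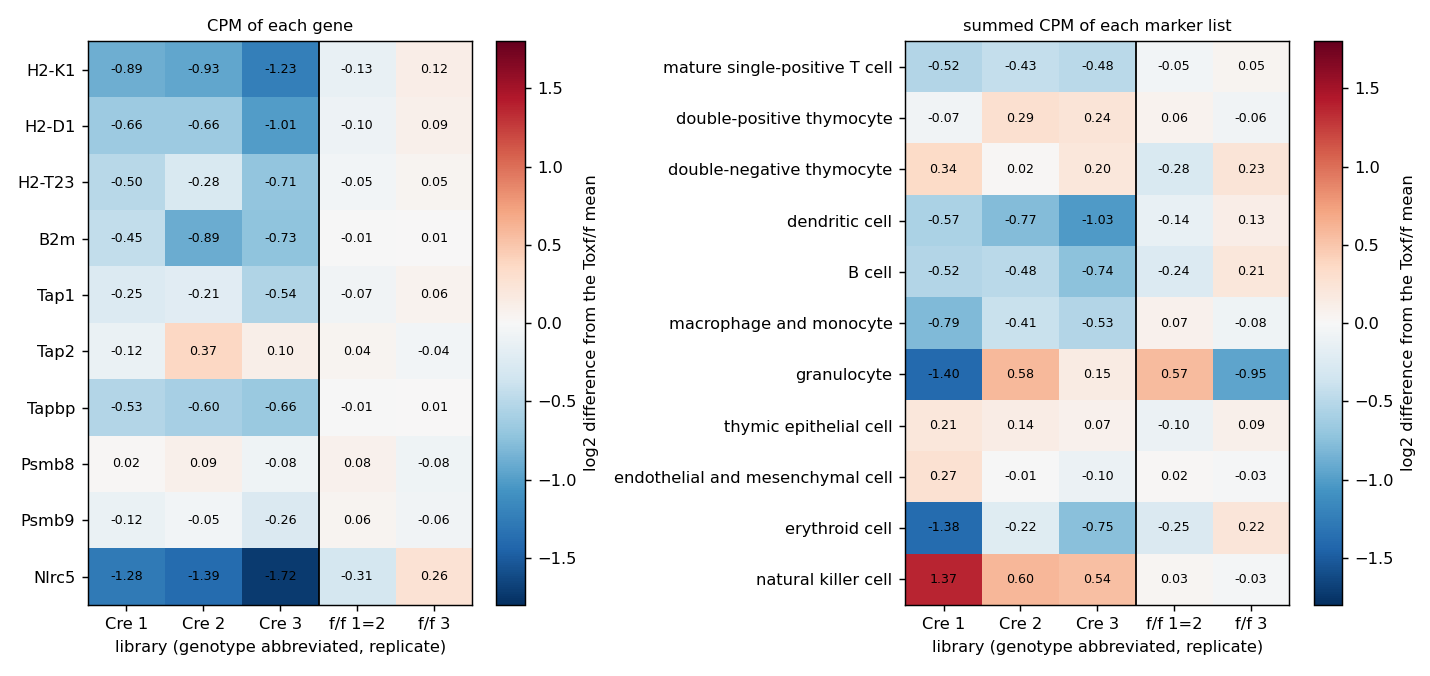
Log2 difference of each gene (left) and of each list's summed CPM (right) from the Toxf/f mean, by library, with f/f 1=2 for the library shared by Toxf/f replicates 1 and 2. The mature T cell, dendritic cell, B cell, macrophage and monocyte, and erythroid marker lists are below the Toxf/f mean in all 3 Toxf/fPdcd1Cre libraries. So are the 10 genes, apart from Tap2 and Psmb8.

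The genes most like the 10 across the 5 libraries were sought among 9204 other genes with a mean of at least 10 CPM. Likeness was the root mean square difference between a gene's centred log2 CPM and the median centred log2 CPM of the 10, and small values mean alike. The closest were Rcan3 at 0.0263, Eno3 at 0.033, C1qa at 0.0357, C1ra at 0.0376 and Prcp at 0.0377. None of these 5 passed the test, with log2 fold changes between -0.60 and -0.51 and adjusted p between 0.0678 and 0.269 by edgeR. Because the 5 were chosen for likeness over these same libraries, fold changes near the median of the 10 follow from that choice.

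The promoter windows of the 10 genes were searched on both strands for motifs known from class I regulation, and 8 of the 10 had a window, from 250 bases before to 50 after the start. Among 32851 RefSeq windows, the ISRE (GAAA, any 2 letters, then GAAA) was in 3.44%, the NF-κB motif in 8.46%, the GAS element (TTCNNNGAA) in 8.3%, the X2 box (TGACGC) in 7.4% and the Y box (CCAAT) in 37.4%. H2-K1 and H2-D1 both held an NF-κB match, an X2 match and a Y match. In both, TGACGC was followed by ATTGG after 19 letters, as the runs printed above show. That order within 40 letters was in 0.152% of all windows, 50 in number, and was chosen for the search after the windows had been seen. Of 18 heavy chain genes with a window, 3 held it, the other being H2-M3.

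H2-Q7, which fell, held NF-κB and Y matches without TGACGC, as did H2-Q6 and H2-M2. The X2 search took those exact letters only. The printed runs hold tgacgt in H2-Q7 and tgacga in B2m, which differ from TGACGC in the last letter. A window without a match may therefore still hold an X2 box written otherwise. The ISRE search likewise took only the letters given above. The printed runs of H2-K1, H2-D1 and H2-Q7 all hold cagtttcacttctg after the NF-κB match, which those letters do not match on either strand. The lack of an ISRE match in these windows therefore does not show that they lack such an element. B2m held an ISRE match 139 to 130 bases before its start, next to an NF-κB match 126 to 117 bases before it, and H2-T23 held an ISRE match 124 to 115 bases before its start. Tap1, Psmb9 and Tapbp held Y matches only, and Psmb8 held a GAS match only, 97 to 89 bases before its start. The motifs did not separate the genes that passed the test from those that did not, since Tapbp passed with Y matches only, and Tap1 and Psmb9 did not pass with the same. A match describes these letters in this window and is not evidence of binding.

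**Figure D5:**
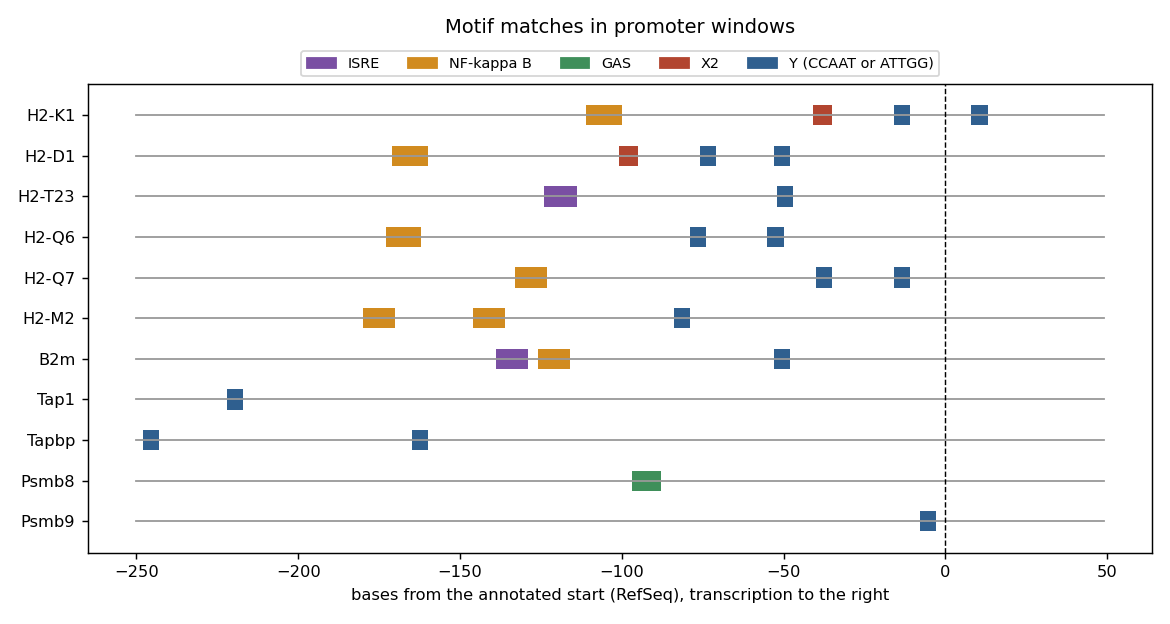
Positions of motif matches in the promoter windows, in bases from the annotated RefSeq start with transcription to the right, coloured by motif. The matches of H2-K1 and H2-D1 come in the same order, NF-κB then X2 then Y, at 111 and 171 bases before the start for NF-κB.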

How the data were processed

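Thymocytes were sorted from mouse thymus, RNA was extracted with Trizol and libraries were made with the NEBNext Ultra kit, per the labels' protocols. For each of 6 samples the authors deposited a table that gives, per the file headers, each of 22298 genes an estimated count and an FPKM value, which accounts for gene length and depth. HISAT2, StringTie 1.3.1 and fastp 0.18.0 were used, per the submitters' processing notes. What each tool did, and the build, annotation, counter and strand setting, is not given in the sources used here. Of the genes in a library, 8.81% to 9.84% had an estimated count that was not whole.

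Samples were grouped by the genotype in their labels, and the identical Toxf/f files were counted once, which gave 5 libraries. Estimated counts were rounded, filtered with filterByExpr, scaled with TMM factors (trimmed mean of M-values, 0.957 to 1.04) and tested with edgeR 4.0.16 (glmQLFit, glmQLFTest) under R 4.3.3, without covariates, as Toxf/fPdcd1Cre minus Toxf/f. Benjamini-Hochberg adjustment ran over the 14121 genes left, with a threshold of 0.05. CPM values use the TMM-scaled library sizes. Ratios were tested by exact permutation of the genotypes over libraries, two-sided. In simulated counts with 200 of 14121 genes changed, the test recovered 70.5% at a 2-fold change with 6 false calls. It recovered 27% at 1.5-fold with 2 false calls and 93% at 4-fold with 15 false calls. Differences near 1.5-fold were thus often missed. The changed genes were drawn at random from abundant and scarce genes alike, so recovery at the levels of Tapbp or B2m was not measured.

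The members, the 8 pathway lists and the 11 marker lists were chosen with earlier results of these data known. Of 89 other pathway genes on the lists, 86 were in the files. The text names all 10 members, each pathway gene past the threshold or otherwise the one with the highest mean FPKM in its list, 11 genes of the class I pathway always, and the 2 genes with the highest mean CPM of a marker list where a result turned on them. Cd4, Kit, Cd44, Krt14, H2-DMb2, H2-Q2, Zbtb22, Ddx3y and the genes of the motif search were named outside that rule, some after their values had been seen. Some genes that the rule gave are left out of the text. Coordinates come from GENCODE M21 on GRCm38, which need not be the build the authors used. Alternatives were RLE and upper-quartile scaling, no low-count filter, DESeq2 1.42.0, a stricter filter (10 CPM in 3 libraries), limma-voom, limma 3.58.1 on log2(FPKM + 1) and log2(FPKM + 0.1) for genes of at least 1 FPKM and without that filter, age as a covariate, the 3-week samples alone, the identical files counted separately, the replicate number as a block, and leaving out each library.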

Additional observations from a re-analysis of the deposited data

Results flagged for a closer look

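Ciita, the class II transactivator, differed in sign between the ages. Set against the Toxf/f library of the same age, its log2 difference was 0.38 and 0.04 in the 3-week Toxf/fPdcd1Cre libraries and -0.85 in the 4-week library. The mean at 3 weeks minus the value at 4 weeks was 1.06. Each age had 1 Toxf/f library, so this difference was not tested.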

How the results depend on the processing

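The median log2 fold change of the 10 genes stayed between -0.60 and -0.44 in every alternative run, and none of the 10 was called higher in any. The number called lower, 4 as reported, was 2 with age as a covariate, 1 with FPKM values without a filter, 1 with the 3-week samples alone and 0 to 5 when 1 library was left out, 0 without Toxf/f replicate 3 and 1 without the shared Toxf/f library. Each of H2-K1, H2-D1, H2-T23, B2m, Tap1, Tapbp, Psmb9 and Nlrc5 kept its direction in all 19 alternatives. Nlrc5 was called in 18, H2-K1 in 15, H2-D1 and Tapbp in 12, B2m in 6 and H2-T23 in 1.

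All genes called, 232 as reported, were 359 by DESeq2, 125 with age as a covariate, 67 with the 10 CPM filter, 417 with no low-count filter, 380 with the identical files counted separately, 113 and 101 with log2(FPKM + 1) and log2(FPKM + 0.1), 44 with FPKM and no filter, 89 with the 3-week samples alone, and 31 to 606 when 1 library was left out. Other pathway genes called, 6 as reported, were 11 by DESeq2, 3 with age as a covariate, 2 with the 10 CPM filter, 11 with the identical files counted separately, 1 with FPKM and no filter, 2 with the 3-week samples alone and 1 to 11 when 1 library was left out. Of calls over all genes, 91.8% were lower as reported and 78.7% with the 3-week samples alone. The fits with the 3-week samples alone or with 1 library left out hold fewer libraries, and those with another filter test another set of genes. For the other settings the cause was not tested.

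Values near 0 changed sign. The log2 difference of the H2-D1 to B2m ratio, -0.08 as reported, was 0.096 with the 3-week samples alone and ranged between -0.24 and 0.014 when 1 library was left out, highest without Toxf/fPdcd1Cre replicate 3. The value of Psmb8, 0.01 as reported, was -0.013 with age as a covariate, -0.048 with the 10 CPM filter, -0.014 with the identical files counted separately, -0.053 in all 3 FPKM fits, -0.021 with the 3-week samples alone, -0.019 with upper-quartile scaling, and between -0.066 and 0.10 when 1 library was left out, with -0.03 without Toxf/fPdcd1Cre replicate 1 and -0.034 without replicate 2. That of Tap2 ranged between -0.0047 and 0.20 when 1 library was left out.

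The genotypes share replicate numbers, but no label says that a number marks a shared mouse, litter or day. With the replicate number as a block and the shared Toxf/f file paired with number 1, 435 genes were called (78.2% lower), 5 of the 10 were called lower, Psmb8 was -0.032 and Tap2 -0.0072. With that file paired with number 2, the number in its column name and a choice made after seeing the data, 868 genes, 13 other pathway genes and 5 of the 10 were called. Deviations from the genotype means correlated at -0.198, 0.105 and -0.157 for the pairs numbered 1, 2 and 3. With 2 Toxf/f libraries, their deviations mirror each other, so these correlations cannot decide whether the numbers pair the samples. The numbers were not taken to pair the samples, as no label says that they do.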
